A study of Mus musculus with 4 samples.

Results

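The 10 genes described here move lipids into, out of and between brain cells, and they were taken by symbol from the 32285 genes of the deposited matrices, each symbol matching 1 gene. They are the secreted carriers Apod (apolipoprotein D), Ptgds (lipocalin-type prostaglandin D synthase), Apoe and Clu (clusterin), the efflux pumps Abca1 and Abcg1, the lipase Lpl, the endocytic receptor Lrp1, the lysosomal precursor Psap and the membrane phosphatase Plpp3. The mice were adult WT littermates and mice carrying 1 R87C allele of Cyfip2 (Cyfip2+/R87C, or KI) on a C57BL/6N background, taken at the oldest age the study sampled. The allele is constitutive, so every cell of a KI mouse carries it. Frozen hippocampus gave the nuclei, from 2 mice of each genotype, with 1 library per mouse and 1 batch label for all 4 libraries. The treatment label of KI replicate 2 reads R88C, while its genotype reads KI and its protocol names R87C, and it was kept as KI.

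Lipids travel through the brain in small lipoprotein particles. Astrocytes make most of the ApoE and clusterin in them, and ABCA1 and ABCG1 load the particles with cholesterol and phospholipid. Neurons and other cells take particles up through endocytic receptors, among which LRP1 is a large one. Apolipoprotein D and the prostaglandin D synthase belong to the lipocalins, a family of small barrel-shaped proteins that carry hydrophobic molecules. In the adult brain both are known from oligodendrocytes and from the meninges and vessels, and the synthase also makes prostaglandin D2. Lipoprotein lipase frees fatty acids from particles, prosaposin is cut into the saposins that help lysosomal enzymes degrade sphingolipids, and PLPP3 removes the phosphate from lysophosphatidic acid and sphingosine 1-phosphate outside the cell.

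Apod and Ptgds were the members called higher in KI in more than 1 neuron subtype, and the 250 bases before their RefSeq starts are printed to show what the stretches hold. Of the 10 members, 7 had an entry in the RefSeq promoter table. On GRCm38.p6, Apod lies on the minus strand of chromosome 16 and its window is chr16:31314809-31315058. Ptgds lies on the minus strand of chromosome 2 and its window is chr2:25469750-25469999, which falls inside the outer bounds that GENCODE gives the gene (25466709 to 25470046), so a longer annotated transcript can cover it. Both are written 5′ to 3′ on the strand of the gene. Capitals mark the matches to 4 searched motifs: the SOX motif ACAAAG, the AP-1 motif TGANTCA, the nuclear receptor half-site AGGTCA and the TATA box TATAAA, each on both strands.
Apod: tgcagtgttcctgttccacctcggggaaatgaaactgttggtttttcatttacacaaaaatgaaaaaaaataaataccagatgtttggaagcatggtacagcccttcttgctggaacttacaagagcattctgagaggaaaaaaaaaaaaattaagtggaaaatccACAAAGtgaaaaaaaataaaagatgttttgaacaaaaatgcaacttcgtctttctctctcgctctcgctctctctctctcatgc
Ptgds: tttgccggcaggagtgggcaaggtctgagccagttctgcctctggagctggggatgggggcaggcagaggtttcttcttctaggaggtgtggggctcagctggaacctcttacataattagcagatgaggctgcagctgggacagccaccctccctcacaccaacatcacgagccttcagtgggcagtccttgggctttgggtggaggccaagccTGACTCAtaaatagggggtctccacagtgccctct
The Apod window held 1 SOX match starting 84 bases before the start, and the Ptgds window held 1 AP-1 match starting 35 bases before it, found on both strands because the motif is a palindrome. The windows shared none of the 4 motifs. Among all 27025 genes of the table, 18.6% had the SOX motif and 7.82% the AP-1 motif in a window of this length, so either match is common.

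Across the series, 52032 of 55640 barcodes passed the filters on genes, mitochondrial reads and doublets, and the libraries held between 73009975 and 80913580 UMIs (unique molecular identifiers, each 1 captured transcript). A nucleus entered a cell class when it held more UMIs of that class's marker genes than that library's overall marker level would give and was positive for no other class. No member was a marker. The gates held 38147 neurons, 5305 oligodendrocytes, 1452 astrocytes, 943 oligodendrocyte precursor cells (OPC), 888 microglia, 177 fibroblasts and 66 endothelial cells, and 9.71% of nuclei fell outside these classes. Every class held UMIs of all of its own markers in every library. Endothelial nuclei numbered only 10 to 23 per library and also held 1.30 to 5.75 UMIs of pericyte and smooth muscle markers per nucleus, so their values are given without a test. Fibroblasts lay near the edge of their gate: 13 of 25, 29 of 57, 24 of 40 and 40 of 55 nuclei lost the label under a stricter gate (5 UMIs, 3 markers), WT libraries first. Neurons were the deepest class, with a median of 4738 to 6186 UMIs per nucleus against 1544 to 1603 in oligodendrocytes. Cyfip2 itself was read at 1.06, 1.17, 1.30 and 1.09 UMIs per neuron in WT replicates 1 and 2 and KI replicates 1 and 2, which the 3′ reads cannot split by allele. Between 40 and 67 barcodes were shared by any pair of libraries.

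Free RNA that leaks from broken cells enters every droplet, so 2 scales are used. CPM (counts scaled to an equal UMI total of the class in each library) is the scale of the tests of KI against WT. UMIs per nucleus is the scale on which free RNA adds a like amount to a shallow glial nucleus and to a deep neuron. The level in neurons is the comparison there, and is read as background for Apod, Ptgds and Apoe, whose neuron counts rose little with depth. Plpp3, Abcg1, Lpl, Lrp1 and Abca1 rose in neurons with depth near the total, so their ratios set shallow nuclei against deeper neurons.

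Apod was highest in oligodendrocytes and fibroblasts. Oligodendrocytes held 1.18 and 0.980 Apod UMIs per nucleus in WT and 8.65 and 2.91 in KI. Fibroblasts, with 25 and 57 nuclei in WT and 40 and 55 in KI, held 2.28 and 1.33 in WT and 5.0 and 1.76 in KI. Without their 5 richest nuclei they held 1.05, 0.769, 3.43 and 1.08, below the oligodendrocytes of all 4 libraries. Those numbered 786 to 1732 a library and were not trimmed, and 5 nuclei would be a far smaller share of them. The KI values lay above WT in oligodendrocytes and overlapped them in fibroblasts.
Neurons held 0.238 and 0.146 Apod UMIs per nucleus in WT and 1.60 and 0.415 in KI. Oligodendrocytes were therefore 4.96 to 7.02 times above the neurons of their own library, and fibroblasts 3.12 to 9.58 times. Astrocytes, at 0.301, 0.168, 1.80 and 0.452 UMIs, and OPC, at 0.251, 0.148, 1.93 and 0.425, were 1.09 to 1.26 times and 1.01 to 1.21 times the neuron level. Those values are read as background. Microglia were 1.20 to 1.96 times above neurons.

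Ptgds was highest in fibroblasts, at 8.52 and 11.4 UMIs per nucleus in WT and 11.1 and 23.9 in KI. Oligodendrocytes came next, at 2.07 and 1.89 in WT and 5.37 and 5.60 in KI. Neurons held 0.488 and 0.405 in WT and 1.57 and 0.956 in KI, so that fibroblasts were 7.04 to 28.1 times and oligodendrocytes 3.41 to 5.86 times above them. Of the 25 to 57 fibroblast nuclei in a library, the 5 richest held 59.3% to 70.4% of the Ptgds UMIs. Without them the class held 3.85, 5.08, 3.74 and 7.80 UMIs per nucleus. In astrocytes Ptgds was 1.0 to 2.13 times the neuron level. WT replicate 1 gave the highest of these ratios, and there 5 nuclei held 227 of its 493 astrocyte Ptgds UMIs.

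**Figure D1:**
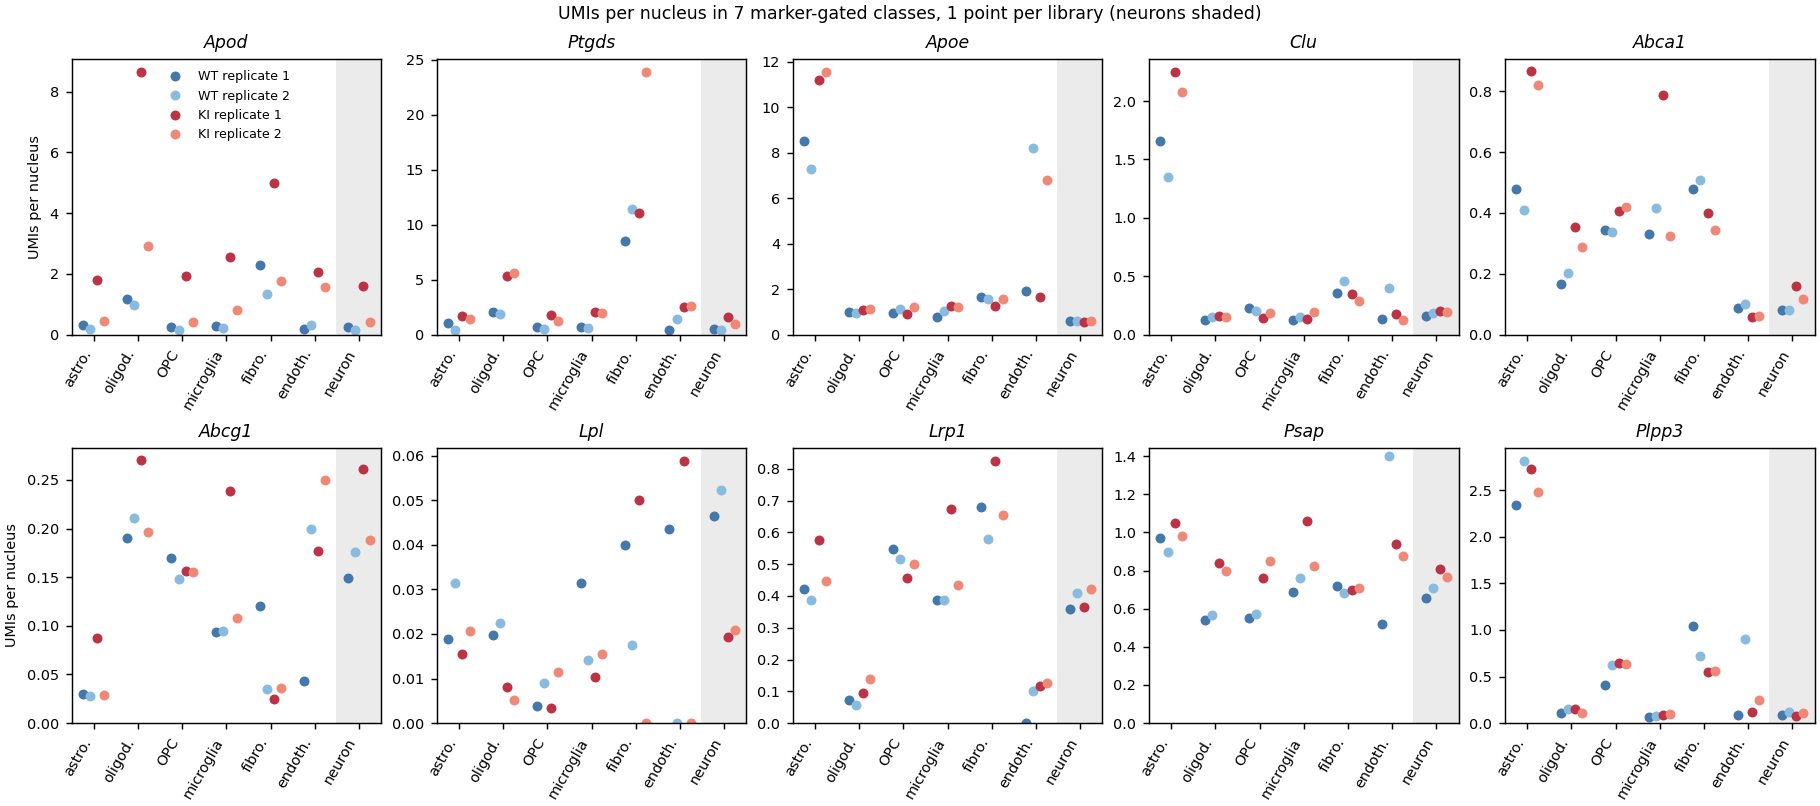
UMIs per nucleus (y axis, linear, own scale for each gene) of the 10 genes in 7 marker-gated classes (x axis), 1 point per library, with neurons, the comparison level, shaded. Apod stands above neurons in oligodendrocytes and fibroblasts, Ptgds in fibroblasts and then oligodendrocytes, and Apoe, Clu and Plpp3 in astrocytes, while Psap lies within 0.539 to 1.06 outside of endothelial nuclei.

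Apoe, the main apolipoprotein of brain lipoproteins, was an astrocyte gene in these nuclei. Astrocytes held 8.5 and 7.29 UMIs per nucleus in WT and 11.2 and 11.6 in KI, 12.2 to 20.2 times the neuron level of 0.608, 0.597, 0.555 and 0.613. The KI astrocytes lay above the WT astrocytes, whereas in neurons the groups overlapped. Oligodendrocytes, OPC and microglia held 0.776 to 1.25 Apoe UMIs per nucleus, 1.28 to 2.25 times neurons. Endothelial nuclei differed between libraries, at 1.91, 8.20, 1.65 and 6.81, with 10 nuclei in the library of the highest value.
Clu, a chaperone-like apolipoprotein, was also highest in astrocytes. Astrocytes held 1.66 and 1.35 UMIs in WT and 2.25 and 2.08 in KI, 7.33 to 11.1 times the neuron level of 0.163 to 0.204. In oligodendrocytes, at 0.124 to 0.158, Clu was 0.755 to 0.806 times the neuron level, and in microglia 0.637 to 0.992 times.

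Plpp3 was itself highest in astrocytes and stood above neurons in fibroblasts and OPC too. Astrocytes held 2.35, 2.82, 2.72 and 2.48 Plpp3 UMIs per nucleus, 22.6 to 35.0 times the neuron level, and the groups overlapped. OPC held 0.405 to 0.648 and fibroblasts 1.04, 0.719, 0.550 and 0.564, with KI fibroblasts below WT fibroblasts.
Abca1 was broader. Its astrocyte level of 0.480 and 0.410 in WT and 0.866 and 0.822 in KI was 5.03 to 6.93 times that of neurons, microglia stood at 2.75 to 5.12 times, OPC at 2.53 to 4.32 times and fibroblasts at 2.49 to 6.25 times. Abcg1 had another order: astrocytes held only 0.0277 to 0.0876 UMIs per nucleus, 0.155 to 0.336 times the neuron level, while oligodendrocytes, at 0.190 to 0.271, were 1.04 to 1.27 times neurons.

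Lrp1 was lowest among the glia in oligodendrocytes, at 0.0721, 0.0578, 0.0941 and 0.140 UMIs per nucleus, 0.141 to 0.331 times neurons. Fibroblasts, at 0.579 to 0.825, and OPC, at 0.456 to 0.548, held more than neurons, at 0.360 to 0.423, in every library. Psap, a gene of every lysosome-bearing cell, ranged only from 0.539 to 1.06 UMIs per nucleus over astrocytes, oligodendrocytes, OPC, microglia, fibroblasts and neurons. Lpl was the rarest member, at 0.0464 and 0.0523 UMIs per nucleus in WT neurons, and its fibroblast and endothelial values rest on at most 2 UMIs a library. Fibroblasts of KI replicate 2 gave 0 Lpl UMIs in 55 nuclei, which allows up to 0.0545 per nucleus, counting error only.

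Astrocytes, oligodendrocytes, OPC, microglia and fibroblasts were each tested against neurons, and the orders among these classes were not tested. The test was edgeR's quasi-likelihood test, with the library as a block and Benjamini-Hochberg adjustment over all genes. On the CPM scale 46 of 50 member and class pairs differed from neurons, 42 higher and 4 lower. Among all genes, 21.9% were higher in astrocytes, 26.6% in oligodendrocytes, 14.8% in OPC, 18.0% in microglia and 9.46% in fibroblasts, and 30.0%, 32.0%, 22.4%, 25.3% and 18.0% were lower.
The CPM scale raises free RNA in shallow nuclei. With the number of nuclei as the scale, an alternative chosen after seeing the data, 34 pairs passed, 26 higher and 8 lower, and 30 of the 46 CPM calls passed in the same direction. Abcg1 in microglia passed in the opposite direction (0.70 on the CPM scale, -0.55 per nucleus, edgeR adjusted p = 0.00522), and the other calls were lost. On that scale 8.67%, 5.96%, 5.78%, 6.82% and 5.65% of all genes were higher than in neurons and 66.6%, 81.1%, 63.3%, 69.0% and 37.6% lower, in the same order of classes. The lost calls include Apod in astrocytes (log2 0.21, SE 0.12, adjusted p = 0.117) and in OPC (log2 0.12, SE 0.17, adjusted p = 0.55).
Among the 30 calls that held per nucleus, all from edgeR, were Apoe in astrocytes (log2 4.00, SE 0.14), Clu in astrocytes (3.27, SE 0.13), Plpp3 in astrocytes (4.74, SE 0.14), Abca1 in astrocytes (2.54, SE 0.13), Apod in oligodendrocytes (2.58, SE 0.26) and Ptgds in oligodendrocytes (2.16, SE 0.26). Fibroblasts held more Ptgds (4.12, SE 0.25) and more Apod (2.51, SE 0.24) than neurons. Abcg1 fell in astrocytes (-2.29, SE 0.20) and Lrp1 fell in oligodendrocytes (-2.16, SE 0.21). The largest edgeR adjusted p among these 10 was 1.01e-15, for Ptgds in oligodendrocytes.

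How the neurons' own counts rose with depth separated the members into sets. Neurons of each library were ordered by total UMIs and cut into 3 groups of equal size, whose deepest group held 2.79 to 2.97 times the median UMIs of the shallowest. The neuronal transcripts Rbfox3 (2.86 to 3.22 times) and Snap25 (3.47 to 4.17 times) rose with depth. Transcripts known from other cells rose less: Ttr, a choroid plexus transcript, rose 1.09 to 1.33 times and the myelin transcript Mbp 1.81 to 2.29 times. Apoe rose 1.05 to 1.21 times, Ptgds 1.14 to 1.29 times and Apod 1.20 to 1.47 times. Clu, at 1.38 to 1.54 times, and Psap, at 1.51 to 1.73 times, lay between. Plpp3 rose 2.11 to 3.16 times, Abcg1 2.14 to 2.56 times, Lpl 2.14 to 3.40 times, Lrp1 2.36 to 3.38 times and Abca1 2.59 to 3.53 times, near the total.

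**Figure D2:**
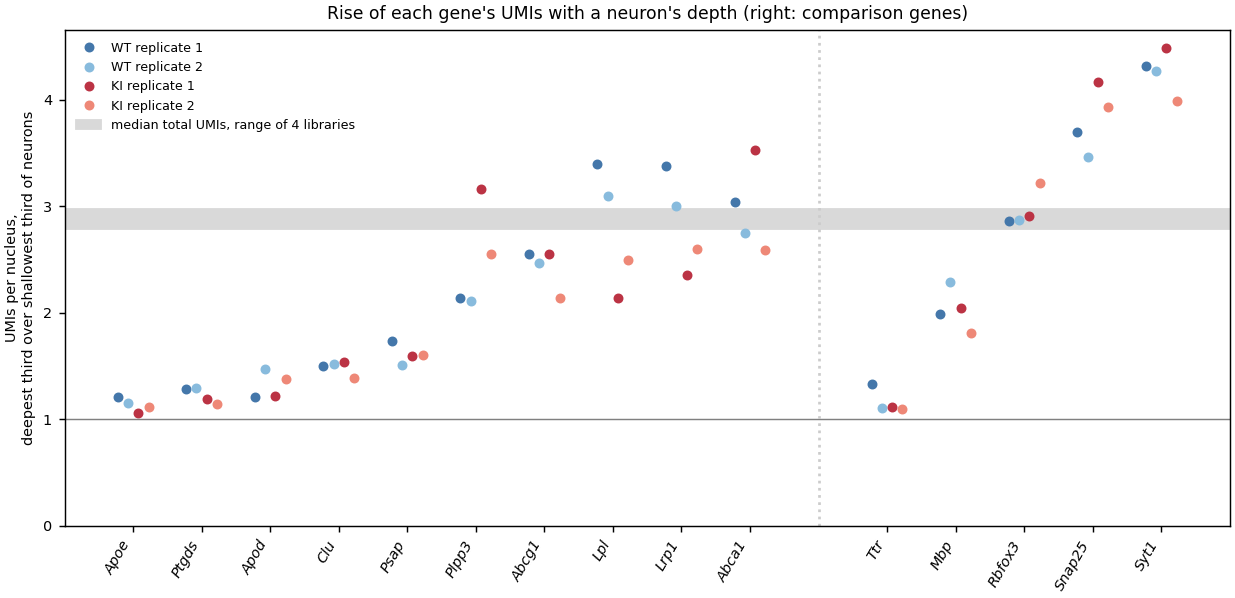
Ratio of UMIs per nucleus in the deepest to those in the shallowest of 3 equal depth groups of neurons (y axis, linear from 0) for the 10 genes and 5 comparison genes (x axis), 1 point per library, with the same ratio of total UMIs as a grey band. Apoe, Ptgds and Apod stay between 1.05 and 1.47, near Ttr at 1.09 to 1.33, whereas Abca1 and Lrp1 reach the band of 2.79 to 2.97.

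Neuron subtypes were compared in the same way. Inhibitory, dentate granule and pyramidal neurons, gated by their own markers and holding 14.2% to 21.2% of the neurons of a library, differed in Apod UMIs per nucleus by 1.10 to 1.19 times between the highest and the lowest subtype. The corresponding ratio was 1.05 to 1.14 for Apoe and 1.07 to 1.21 for Ptgds, against 1.99 to 5.22 for Abca1, 1.34 to 2.11 for Lrp1 and 1.61 to 3.12 for Lpl, 1.36 to 2.98 for Plpp3, 1.11 to 1.84 for Clu, 1.25 to 1.48 for Psap, 1.12 to 1.48 for Abcg1 and 1.90 to 2.91 for Mbp, and a median of 1.55 to 1.85 over all genes with enough UMIs. The proportion of Apod to Ptgds UMIs was also like among neuron subtypes within a library: 0.433 to 0.509 in WT replicate 1, 0.344 to 0.387 in WT replicate 2, 0.891 to 1.07 in KI replicate 1 and 0.392 to 0.422 in KI replicate 2. In oligodendrocytes of the same libraries it was 0.572, 0.519, 1.61 and 0.521. KI replicate 1 stood apart from the other 3 libraries in every one of these classes.

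The comparison of KI with WT asks whether lipid carriers change in the hippocampus of these mice, and in which cells. Of 95 pairs of member and class that could be fitted (10 gates, counting the 3 neuron subtypes and all nuclei together), 10 passed an adjusted p of 0.05 with edgeR, 6 higher in KI and 4 lower. All 10 were in neurons or in all nuclei. Apod rose in granule and inhibitory neurons, Ptgds rose in granule, inhibitory and pyramidal neurons, and Lrp1 rose in granule neurons. Lpl fell in neurons, granule neurons, pyramidal neurons and all nuclei. The 5 Apod and Ptgds calls rest on the neuron counts that serve as the free RNA background, and do not show that neurons made more of either transcript. Among all genes tested, 9.81% passed in granule (5.05% higher, 4.76% lower), 6.33% in pyramidal (3.7% higher, 2.63% lower), 0.996% in inhibitory (0.648% higher) and 1.59% in all gated neurons (0.688% lower), and 0.889% in all nuclei (0.382% lower).
In astrocytes, oligodendrocytes, OPC, microglia and fibroblasts no member of 45 fitted pairs passed with edgeR. There 18 pairs had an unadjusted p below 0.05, and DESeq2 called 3: Ptgds in oligodendrocytes, OPC and microglia. Those classes gave few calls among all genes too: 0.11%, 0.0843%, 0.0341%, 0.0248% and 0.0% passed, and 11.3%, 11.7%, 10.2%, 9.06% and 7.71% had an unadjusted p below 0.05.

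Among the members, Apod had the highest log2 fold change of KI over WT in every class fitted, and its KI mice stood far apart. In oligodendrocytes WT mice had 621 and 518 CPM of it, against 4580 and 1125 CPM for KI mice. Both KI libraries lay above both WT libraries, as did 17.1% of all genes there, and KI replicate 1 was far above KI replicate 2. The log2 fold change was 2.42 (SE 0.58, edgeR adjusted p = 0.202). Leaving out KI replicate 1 gave 1.01 and leaving out KI replicate 2 gave 3.11, both past the threshold, with the lone KI library assumed to vary as the WT libraries do.
In microglia the 2 WT values of Apod, 165 and 114 CPM, lay below the 2 KI values, 1479 and 417 CPM (log2 2.81, SE 0.48, edgeR adjusted p = 0.135). In all gated neurons the WT values of 43.3 and 23.3 CPM lay below the KI values of 223 and 68.1 CPM (log2 2.20, SE 0.60, edgeR adjusted p = 0.11).
Granule and inhibitory neurons, where Apod passed, showed the same order of the 4 libraries, and in pyramidal neurons Apod did not pass. In granule neurons Apod stood at 44.4, 24.8, 288 and 74.7 CPM (log2 2.55, SE 0.54, edgeR adjusted p = 0.0207). In inhibitory neurons it stood at 35.3, 21.4, 179 and 53.9 CPM (log2 2.16, SE 0.45, edgeR adjusted p = 0.042). Leaving out KI replicate 1 gave 1.22 in granule and 0.99 in inhibitory neurons, leaving out KI replicate 2 gave 3.23 and 2.78, and all 4 passed the threshold. DESeq2 did not call either gene and subtype pair (adjusted p = 0.11 and 0.356), and the inhibitory call was also lost with library totals (0.0586), with no doublet removal (0.0691) and under the stricter gate (0.0566).
Per nucleus, the KI mean was 5.25 times the WT mean in neurons and 5.35 times in oligodendrocytes, and KI replicate 1 lay far above KI replicate 2 in each. The Apod counts of neurons are those that depended little on a neuron's depth or subtype.

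Single oligodendrocytes showed where the Apod counts lay. The median nucleus held 1 Apod UMI in each WT library, 7 in KI replicate 1 and 2 in KI replicate 2. With each nucleus thinned to 1000 UMIs, which left out 78 to 193 shallower nuclei per library, 42.5% (95% exact binomial interval 40.0% to 45.1%) and 38.2% (35.2% to 41.3%) of WT oligodendrocytes held Apod, against 92.6% (91.2% to 93.9%) and 59.9% (56.2% to 63.5%) in KI. The shares before thinning were 56.0%, 51.2%, 97.2% and 76.2%. Neurons, which serve as background, held Apod in 5.33%, 2.68%, 23.4% and 7.78% of nuclei at the same 1000 UMIs, and in 20.5%, 12.8%, 76.1% and 31.4% before thinning, which takes more UMIs from a deep neuron than from a shallow oligodendrocyte. The Apod UMIs were spread over the class, since the 5 richest of its 786 to 1732 nuclei in a library held 1.63% to 5.46% of them.

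**Figure D3:**
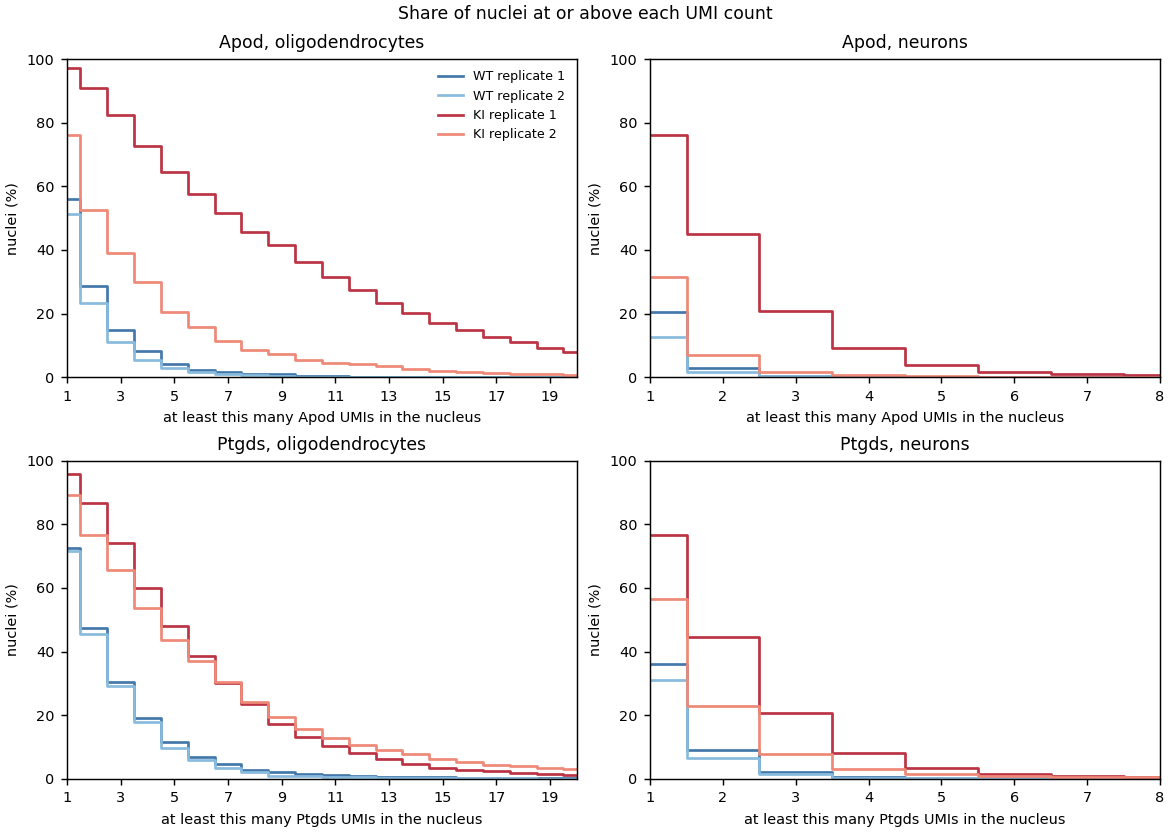
Share of nuclei (y axis, percent) with at least the number of UMIs on the x axis, for Apod (top) and Ptgds (bottom) in oligodendrocytes (left) and neurons (right), 1 line per library. For Apod the line of KI replicate 1 runs far above that of KI replicate 2 (97.2% and 76.2% of oligodendrocytes with a UMI), while for Ptgds both KI lines lie above the WT lines, closer together in oligodendrocytes (95.8% and 89.2%) than in neurons (76.5% and 56.7%).

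Ptgds had smaller log2 fold changes than Apod, and in oligodendrocytes its KI mice stood closer together. Oligodendrocytes of WT mice held 1087 and 998 CPM, those of KI mice 2841 and 2160 CPM (log2 1.34, SE 0.21, edgeR adjusted p = 0.0866, DESeq2 adjusted p = 0.000181). In microglia, at 384, 298, 1182 and 1005 CPM, the log2 fold change was 1.72 (SE 0.25, edgeR adjusted p = 0.0639). Per nucleus Ptgds was only 1.30 to 2.05 times the neuron background in microglia (log2 0.59, edgeR adjusted p = 0.000543). In OPC it was 1.15 to 1.37 times that background (log2 0.35, edgeR adjusted p = 0.0551).
Fibroblasts, the class with the highest Ptgds level, held 3170, 4878, 4980 and 12678 CPM (log2 1.24, SE 0.41, edgeR adjusted p = 0.463), and KI replicate 2 alone was far above the rest. Without that library the fibroblast value was 0.46.
In neuron subtypes Ptgds passed with edgeR in granule (log2 1.52, SE 0.23, adjusted p = 0.00469), inhibitory (log2 1.55, SE 0.20, adjusted p = 0.00525) and pyramidal neurons (log2 1.18, SE 0.24, adjusted p = 0.0271), and each stayed called without any 1 library. The granule CPM were 101 and 70.8 in WT and 268 and 177 in KI. As for Apod, the KI to WT ratio of mean UMIs per nucleus was near that of oligodendrocytes (2.83 in all gated neurons, 2.77 in oligodendrocytes), and the counts depended little on depth. Per nucleus, KI replicate 1 lay above KI replicate 2 in neurons and slightly below it in oligodendrocytes.
Transcripts known from other cells had another pattern in neurons. Ttr stood at 0.331, 0.0655, 0.348 and 0.153 UMIs per nucleus, so that its groups overlapped, and Mbp at 0.472, 0.460, 0.489 and 0.487.
Whether the genotype effect differed between a class and neurons was tested directly, and no member passed in any of 5 classes (0 of 50 pairs with edgeR, 7 with an unadjusted p below 0.05). Among all genes 1.23% passed for astrocytes, 0.111% for oligodendrocytes, 0.732% for OPC, 0.369% for microglia and 0.0835% for fibroblasts, and 8.35%, 6.75%, 6.99%, 5.48% and 2.6% had an unadjusted p below 0.05. The term was 0.07 (SE 0.26) for Apod in oligodendrocytes and -0.01 (SE 0.22) for Ptgds. In fibroblasts it was -0.95 for Apod (SE 0.32, edgeR adjusted p = 0.965). For Apod and Ptgds the term cannot show which cells changed, because the neuron counts they are set against serve as the free RNA background. In simulated counts the test recovered 32% of 2-fold changes for oligodendrocytes and 13% for astrocytes.

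Across oligodendrocytes of 1 library, nuclei rich in Apod were not those rich in Ptgds. The Pearson correlation of their depth-scaled log values was -0.114, -0.118, -0.135 and -0.301 over 1679, 1108, 1732 and 786 nuclei. The nuclei share a library, and the values are given as a description.

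**Figure D4:**
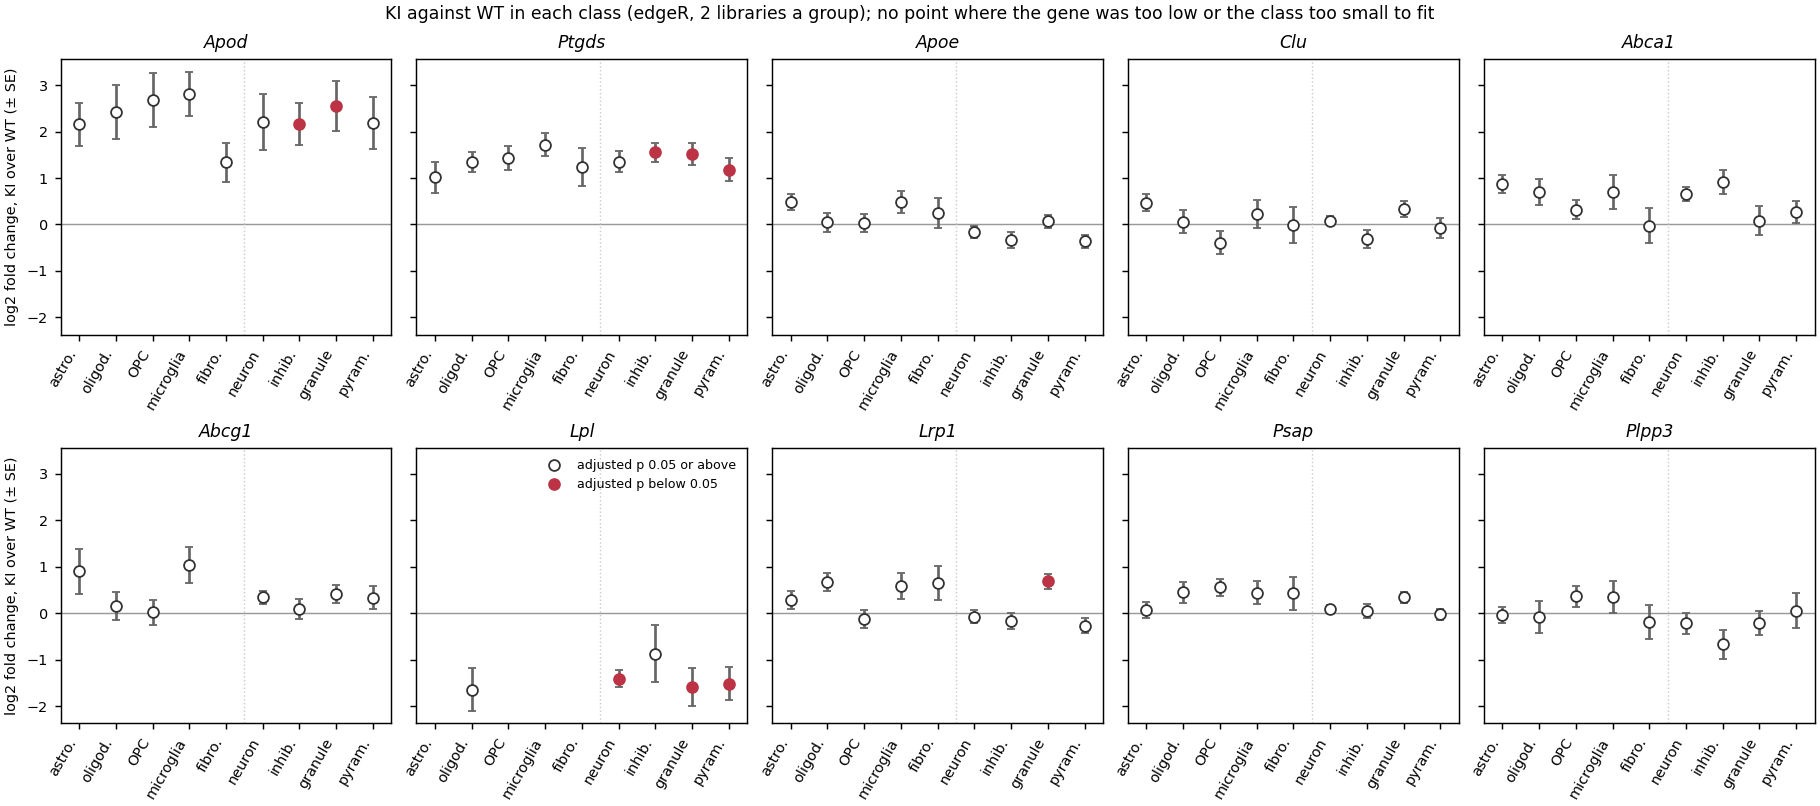
Log2 fold change of KI over WT (y axis, edgeR on CPM-scaled sums of 2 WT and 2 KI libraries) with its standard error, for each gene in 5 non-neuronal classes (left of the dotted line), all gated neurons and 3 neuron subtypes (x axis). Filled points have an adjusted p below 0.05: Apod and Ptgds lie above 0 in every class and Lpl lies below 0 in each class where it passed the filter on low counts.

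Among the astrocyte genes, Apoe, Clu and Abca1 stood higher in both KI libraries than in both WT libraries, as did 18.1% of all genes there, and none passed the test. Apoe was at 3860, 3204, 4281 and 5317 CPM, WT first (log2 0.48, SE 0.17, edgeR adjusted p = 0.328). Clu was at 753, 591, 859 and 955 CPM (log2 0.47, SE 0.18, edgeR adjusted p = 0.359). Abca1, which exports cholesterol to apolipoproteins, was at 218, 180, 330 and 377 CPM (log2 0.87, SE 0.19, edgeR adjusted p = 0.124) and passed under a stricter gate (0.92, adjusted p = 0.0409).
Plpp3 in the same nuclei was at 1065, 1239, 1038 and 1140 CPM, with a log2 fold change of -0.05 (SE 0.17). Against neurons, the astrocyte genotype effect of Apoe was 0.60 (SE 0.17, edgeR adjusted p = 0.066).
The KI libraries gave fewer astrocyte nuclei, 194 and 241 against 475 and 542 in WT, and the part of this difference in the Apoe, Clu and Abca1 values was not tested. Over all nuclei together Apoe, at 220, 193, 167 and 180 CPM in the 4 libraries, did not pass (log2 -0.20, SE 0.10, edgeR adjusted p = 0.256).

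Abca1 also stood higher in KI in oligodendrocytes, at 88, 107, 187 and 111 CPM (log2 0.71, SE 0.28), and in all gated neurons, at 14.5, 13.0, 22.4 and 19.4 CPM (log2 0.66, SE 0.15, edgeR adjusted p = 0.0803). Its partner Abcg1 gave 27.2, 28.1, 36.4 and 30.8 CPM in neurons (log2 0.34, SE 0.14, edgeR adjusted p = 0.198). In granule neurons Abca1 overlapped between the groups, at 11.1, 7.63, 7.23 and 10.9 CPM.

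Lpl fell in KI. In all gated neurons WT mice had 8.44 and 8.36 CPM, from 498 and 484 UMIs, and KI mice 2.68 and 3.42 CPM, from 156 and 210 UMIs (log2 -1.41, SE 0.18, edgeR adjusted p = 0.0355). The WT values differed by little and the KI values lay below both. The fall was alike in granule neurons (log2 -1.59, SE 0.41, adjusted p = 0.0424) and pyramidal neurons (log2 -1.52, SE 0.35, adjusted p = 0.0417), and in all nuclei together (log2 -1.37, SE 0.17, adjusted p = 0.0375), all with edgeR. In inhibitory neurons it stood at 4.20, 4.19, 0.853 and 3.64 CPM and did not pass (log2 -0.87, SE 0.62, edgeR adjusted p = 0.516). Oligodendrocytes, where Lpl was 0.244 to 0.431 times the neuron level per nucleus, gave 10.3, 11.9, 4.28 and 1.96 CPM (log2 -1.65, SE 0.45, edgeR adjusted p = 0.265).
Each of the 4 Lpl calls was lost without either WT library. Without WT replicate 1 or 2 the adjusted p in all gated neurons was 0.099 and 0.0736, with log2 fold changes of -1.41 and -1.43, and DESeq2 did not call the granule and pyramidal values.

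Lrp1, the endocytic receptor for ApoE particles, rose in granule neurons, where the WT values were 45.8 and 45.6 CPM and the KI values 57.2 and 77.1 CPM (log2 0.68, SE 0.16, edgeR adjusted p = 0.0304). In pyramidal neurons it was at 72.5, 71.5, 48.8 and 67.0 CPM (log2 -0.27, SE 0.15, edgeR adjusted p = 0.332) and in all gated neurons at 65.5, 65.5, 50.7 and 69.4 CPM (log2 -0.08, SE 0.14). The granule call was lost without WT replicate 1 (adjusted p = 0.191), without WT replicate 2 (0.208) and when the sums were scaled to library totals alone (0.0705). In oligodendrocytes, which held the least Lrp1 per nucleus among the glia, the values were 37.9, 30.5, 49.8 and 54.0 CPM (log2 0.66, SE 0.20, edgeR adjusted p = 0.289).
No Psap result passed. Its log2 fold change ran from -0.02 in pyramidal neurons to 0.55 in OPC (SE 0.18, edgeR adjusted p = 0.371).

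The genes whose CPM pattern over the 28 class and library sums was most like a member's, by Pearson correlation of log2(CPM + 1) among 10120 genes, are given as a description, since sums of 1 library share its depth and its free RNA. Ptgds was nearest to Apod (0.865), followed by Polr2a (0.798) and Rbl2 (0.794). Apoe was nearest to Cst3 (0.944), Mt1 (0.932) and Mt3 (0.924), and Clu to Acsl3 (0.940), Ndrg2 (0.939) and Aldoc (0.908), genes known from astrocytes. Plpp3 was also nearest to Ndrg2 (0.933), and Acsl3 (0.875) was also among its nearest. Psap was nearest to Cd81 (0.870), the lysosomal protease Ctsd (0.869) and Sat1 (0.863), Abca1 to Lamp2 (0.875), Agmo (0.824) and Tcf7l2 (0.820), and Abcg1 to Ppp2r2a (0.854), Mboat1 (0.806) and Atp8a1 (0.803). Lrp1 was nearest to Soat1 (0.897), Gsdme (0.870) and Fhit (0.863), Lpl to Chrac1 (0.827), Tmub1 (0.798) and Slc39a3 (0.795), and Ptgds, after Apod, to Neat1 (0.855) and Slc38a2 (0.815).

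Around the members, 145 genes in 8 lists cover the other apolipoproteins, lipoprotein receptors, ABC transporters, the prostaglandin D2 pathway, fatty acid uptake, lysosomal lipid enzymes, lysophospholipid signalling and lipid droplets. In KI 3 rose of 134 tested in all gated neurons, 4 rose and 4 fell of 95 in granule neurons, 5 rose and 4 fell of 98 in pyramidal neurons, 1 rose of 92 in inhibitory neurons and 1 fell of 137 in all nuclei, and none passed in the 5 non-neuronal classes. These shares, 2.24%, 8.42%, 9.18%, 1.09% and 0.73%, stand beside 1.59%, 9.81%, 6.33%, 0.996% and 0.889% of all genes.
Of the 22 calls, 6 stayed called without any 1 library and 16 were lost without at least 1 library.

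In the prostaglandin D2 pathway list, which leaves out the member Ptgds, 2 genes passed, and neither is a prostaglandin D synthase. Ptgs1, the cyclooxygenase that makes the substrate of the synthase, rose in pyramidal neurons from 2.00 and 2.76 CPM to 17.3 and 10.5 CPM (log2 2.65, SE 0.40, edgeR adjusted p = 0.00863). Hpgd, which inactivates prostaglandins, rose there from 0.223 and 0.753 CPM, a single UMI in WT replicate 1, to 7.50 and 11.1 CPM (log2 4.25, SE 0.55, edgeR adjusted p = 0.00559). Both also passed in all gated neurons (log2 1.52 and 1.62), where the call was lost without either WT library. Hpgds, the other prostaglandin D synthase, was a microglial gene at 427, 502, 416 and 350 CPM and did not pass in microglia (log2 -0.23, SE 0.23) or in neurons (0.19, SE 0.10). Ptgs1 in microglia, at 149, 124, 200 and 171 CPM, did not pass either.

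Among the receptors, Lrp4, known for its part at the neuromuscular synapse, rose in pyramidal neurons from 2.23 and 2.76 CPM to 11.7 and 15 CPM (log2 2.46, SE 0.32, edgeR adjusted p = 0.00566) and in all gated neurons (log2 1.57). The sorting receptors fell, Sorl1 in granule neurons, with 192 and 195 CPM for WT and 126 and 114 CPM for KI (log2 -0.55, SE 0.12) and Sort1 in pyramidal neurons from 201 and 202 CPM to 132 and 150 CPM (log2 -0.45, SE 0.11). Scarb1, the HDL receptor, fell in granule neurons (log2 -0.77, SE 0.18). Each of these edgeR calls other than that of Lrp4 in pyramidal neurons was lost without either WT library. The ApoE receptors Vldlr and Lrp8 did not pass in neurons, with log2 fold changes of -0.19 (SE 0.11) and -0.28 (SE 0.12).

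Abca8b, a relative of Abca1, was the only listed transporter to pass and did so in each neuron subtype. Its granule values were 64.7 and 59.1 CPM for WT and 123 and 112 CPM for KI (log2 1.06, SE 0.14, edgeR adjusted p = 0.00207), and it rose by 0.99 (SE 0.19) in inhibitory and by 0.81 (SE 0.18) in pyramidal neurons. The inhibitory call was lost without WT replicate 1 and the pyramidal call without either WT library.
Among the relatives of Plpp3, Plpp4 rose in granule neurons, with 29.6 and 41.7 CPM for WT and 141 and 85.1 CPM for KI (log2 1.81, SE 0.26, edgeR adjusted p = 0.00351). Plppr1 fell in pyramidal neurons from 26.5 and 28.1 CPM to 7.15 and 12.6 CPM (log2 -1.46, SE 0.26, edgeR adjusted p = 0.0165), and Plppr4 fell there by 0.50 on the log2 scale (SE 0.11). Plpp1 was at 24.4, 23.8, 21.5 and 27.1 CPM in neurons (log2 0.06, SE 0.13). Lpar4, a receptor for lysophosphatidic acid, fell in granule neurons (log2 -3.14, SE 0.84, no UMI in KI replicate 1) and in all nuclei (log2 -2.16, SE 0.30), where its level was at most 2.59 CPM. The Plppr4 and Lpar4 calls were each lost without at least 1 library.

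The remaining calls were of genes that handle fatty acids, cholesterol esters and glycolipids inside the cell. Acsl1 and Acsl6, which activate fatty acids, rose in granule neurons (log2 0.85, SE 0.19, and 0.78, SE 0.14), and Acsl4 fell in pyramidal neurons (log2 -0.59, SE 0.13). Soat1, which esterifies cholesterol for storage in lipid droplets, rose in pyramidal neurons from 15.1 and 14.1 CPM to 29.1 and 32.4 CPM (log2 1.13, SE 0.18, edgeR adjusted p = 0.0122), a call lost without WT replicate 2. Hexa, a lysosomal hexosaminidase gene, fell in granule neurons (log2 -0.84, SE 0.22). The calls of Acsl1, Acsl6, Acsl4 and Hexa were also each lost without at least 1 library. The partners of prosaposin showed no call: Npc2, Grn, Gpr37 and Gpr37l1 had log2 fold changes of 0.06 (SE 0.15), 0.26 (SE 0.14), 0.11 (SE 0.18) and -0.34 (SE 0.17) in neurons. Gpr37l1, named as a prosaposin receptor, was highest in astrocytes at 328, 284, 311 and 425 CPM, the class with the most Psap UMIs per nucleus among the tested glia in 3 of 4 libraries.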

How the data were processed

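Nuclei of frozen hippocampus from 2 WT and 2 KI mice were profiled with droplet 3′ RNA sequencing. The deposited matrices hold raw UMI counts per gene and nucleus, which the authors made with Cell Ranger 7.0.1, on build mm10 according to the submitters' processing notes. The annotation version and the use of intronic reads are not given in the sources used here. Gene coordinates are those of GENCODE on GRCm38.

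Barcodes with at least 500 genes and at most 5% mitochondrial UMIs were kept, and 3263 (5.86%) were removed as doublets at a score above 0.25 (scanpy 1.11.5, expected rate 0.08). A class needed at least 3 UMIs of at least 2 of its markers. Counts were summed per library and class, given as CPM and fitted with edgeR 4.0.16 (quasi-likelihood, TMM factors, low counts filtered) in R 4.3.3, with Benjamini-Hochberg adjustment over all genes and a threshold of 0.05. DESeq2 1.42.0 was an alternative. Classes with under 20 nuclei in a library were not fitted. The study tested single nuclei, whereas here the mouse was the replicate, with 2 mice a group. The p-values rest on a spread between mice estimated from both groups and shared in part over genes. Scripts were tested on simulated data.

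Libraries held 73009975 to 80913580 UMIs. Replicate libraries differed beyond sampling noise (chi-square per degree of freedom 16.5 in WT and 46.3 in KI). Intervals and floors cover counting error only. The members and gene lists were chosen with earlier results of these data known. The text names the members, list genes past the threshold in a class (all if 6 or fewer, otherwise the 4 with the largest change), list genes set beside a member, and the 3 genes most like each member among those of at least 50 CPM in a sum. Some genes that this rule names are not reported here. Alternatives were library totals, no filter on low counts, a replicate block, no doublet removal, at least 1000 genes, a stricter gate (5 UMIs, 3 markers), leaving out each library and scaling by nuclei.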

Additional observations from a re-analysis of the deposited data

Results flagged for a closer look

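Lrp1 gave values of opposite sign in granule neurons and OPC. In granule neurons both KI libraries lay above both WT libraries, with a log2 fold change of 0.68 (SE 0.16, edgeR adjusted p = 0.0304), a call lost without either WT library. In OPC both KI libraries lay below both WT libraries, with a log2 fold change of -0.13 (SE 0.19, edgeR adjusted p = 0.872), which did not pass. The difference between these cell types was not tested.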

How the results depend on the processing

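With 2 mice a group, 1 library decides much. The 10 member and class results called for KI against WT became 23 without the filter on low counts and 21 with the replicate block, which kept all 10. The replicate numbers did not pair the libraries (correlation of deviations 0.087 over 9704 genes). Leaving out each library in turn gave 11 to 48 calls, with 28 without KI replicate 1 and 48 without KI replicate 2, where the lone library of a group is assumed to vary like the other group, and the cause of the higher counts was not tested. Of the 10 calls, DESeq2 made 6, library totals 8, no doublet removal 9, the stricter gate 8 and the fit without either WT library 5. At least 1000 genes kept all 10. The stricter gate and the limit of 1000 genes left too few fibroblasts to fit. For Apoe in oligodendrocytes the log2 fold change was -0.032 with library totals and -0.030 with at least 1000 genes, and ran from -0.20 to 0.24 without 1 library. The 46 calls against neurons stayed between 44 and 45 without 1 library. Scaling by nuclei, chosen after seeing the data, gave 34. It turned Abcg1 in OPC (-0.28) and microglia (-0.55), Clu in microglia (-0.36) and oligodendrocytes (-0.37), Lpl in astrocytes (-0.74), fibroblasts (-0.54), microglia (-0.96) and oligodendrocytes (-1.33), Plpp3 in microglia (-0.27), and Psap in OPC (-0.12), fibroblasts (-0.067) and oligodendrocytes (-0.12). Lpl in oligodendrocytes was -0.013 without the filter, and in fibroblasts it ran from -0.74 to 0.65 without 1 library. The difference in genotype effect, with 0 calls, had 1 with library totals, 1 without the filter, 1 with the stricter gate and 0 to 8 without 1 library. For Apod in oligodendrocytes this term ran from -0.28 to 0.32 and for Ptgds from -0.22 to 0.086 without 1 library, and for Ptgds it was 0.0049 without the filter and 0.0087 per nucleus. Depth limits Lpl, which the filter on low counts removed for KI against WT in astrocytes, OPC, microglia and fibroblasts. Without the filter its log2 fold changes there were -0.57, 0.12, -0.91 and 0.16.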
